A study of Mus musculus with 12 samples.

Results

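Integrins are the main receptors by which cells hold on to the extracellular matrix and to each other. Each receptor pairs an α with a β chain, made from separate genes, and the pairing decides which ligand is bound. Integrin β1 pairs with most α chains, α3 and α6 with β1 bind laminins, α5 with β1 binds fibronectin, and αv pairs with several β chains, β5 among them, to bind vitronectin and related proteins. Integrin β2 (CD18) is known from leukocytes, where it pairs with αL, αM, αX or αD.

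The genes described here are 10 mouse integrin genes, picked by symbol from the 25239 genes of the expression table: Itga3, Itga4, Itga5, Itga6, Itgav, Itgb1, Itgb2, Itgb3, Itgb5 and Itgbl1. They were chosen from both tables with the measured changes in view, the higher value of Itgb2 after mesaconitine among them. Their expression changes and calls are therefore given as a description, and they are no independent evidence that these genes changed. All 10 are listed in the expression table, 9 with a fold change. In the m6A table, 4 of 2643 peaks lie on 3 of the genes, Itgb2, Itgbl1 and Itga6.

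The series compared HT22 cells, a wild-type line of mouse hippocampal origin, after 72 h with 800 μM mesaconitine (MA), a diterpenoid alkaloid of Aconitum, with untreated control cells. Each condition has 3 input libraries and 3 libraries immunoprecipitated (IP) with an anti-m6A antibody, 12 in all. HT22 is a single cell line, and the labels do not say whether the 3 libraries of a group came from separate cultures. The values of single libraries were not analysed here, so the replicate spread enters only through the authors' standard errors (SE) and the depth of each library is unknown. A bulk library cannot tell more cells with a transcript from more transcript per cell. Of 14 markers of neurons, 7 were listed at 0 and 3 lay above 0 but under a base mean of 10, Rbfox3 at 1.15 among them, whereas Syn1, Eno2 and Tubb3 had base means of 710.0, 534 and 473.

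The base mean is the authors' mean over libraries of the read count after division by a size factor, and it was divided here by the length of the longest coding transcript to compare genes. On this scale Itgb1, the shared β chain, stood far above the rest, at 10029 per kb. It made up 85.9% of the sum over the 9 mouse β genes. Itgb5 followed with 1598 per kb, or 13.7% of that sum, and Itgb2 with 38.7 per kb, or 0.332%. Among the 18 α genes, the 4 members Itga3, Itgav, Itga5 and Itga6 together made up 97.4% of the sum, at 1499, 1427, 1075 and 592 per kb. Itgb1 was 2.18 times as high per kb as these 4 α genes together. Itgbl1, which encodes a protein with repeats like those in the stalk of β chains and is no receptor subunit itself, had 314 per kb.

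The remaining members were at the bottom of the list. Itgb3, the β chain of the platelet and osteoclast receptors, had a base mean of 0.710, and Itga4, the α chain of the VCAM-1 receptor, was listed at 0. Of all 27 integrin subunit genes, 6 had a base mean of at least 1000, and all 6 are members. Another 8 lay between 10 and 1000, Itgb2 among them, 6 lay above 0 and under 10, and 7 were listed at 0. A listed 0 does not show that no read was found, since 96 of the 9061 genes listed at 0 carry an m6A peak, with 8 to 528 reads of control input in a peak. The base mean has no error in the table, so neighbours in this order were not compared. Per kb of all annotated exons in place of the longest coding transcript, Itga5 moved ahead of Itgav (955 and 937) and Itgbl1 ahead of Itga6 (302 and 283).

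**Figure D1:**
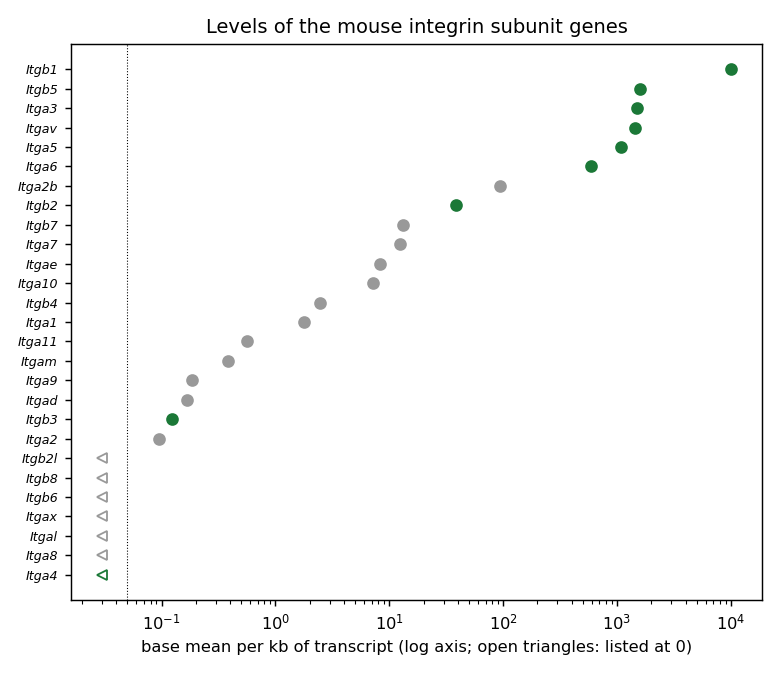
Base mean per kb of the longest coding transcript (log axis) for the 27 mouse integrin subunit genes, as the mean over both conditions. Green marks the members, grey the other subunit genes, and open triangles left of the dotted line the 7 genes listed at 0. Itgb1 at 10029 per kb stands above all others, Itgb2 lies at 38.7, and Itgb3 and Itga4 lie at 0.123 and 0.

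A gene was called at an unadjusted p under 0.05 with more than 1.2-fold change in the authors' DESeq2 table. The table names neither the numerator of its fold change nor the libraries behind it. Following the rule for these genes, the sign was reversed so that positive values mean higher after MA, and every direction of expression given here rests on that reading. Reads in the m6A peaks were compared with it over 2317 peaks on genes with a base mean of at least 50. Spearman's rho with the reversed fold change was 0.28 for the IP reads (MA over control, log2) and 0.0076 for the input reads, so the input reads in the peaks do not settle the sign. These correlations run across peaks, which share libraries and are not independent replicates. Of the 9 members with a p-value, 1 was called higher and 3 were called lower. Over all 16167 tested genes, 6.80% were called higher and 7.07% lower. Since the members were chosen with this comparison in view, nothing is read from these shares.

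Itgb2 was the member called higher. The deposited values give a log2 fold change of 1.37 (SE 0.32, 95% interval 0.73 to 2.01), a ratio of 2.59. The gene lies at 77530252 to 77565708 on the plus strand of chromosome 10 (mm10), and no other annotated gene overlaps it. If the base mean of 115 averages 3 libraries of each group, the fold change implies mean normalized counts of 64.2 in control and 166 in MA-treated cells. Of the tested genes, 36.3% had a lower base mean. The SE of Itgb2 compares with a median SE of 0.29 over the 1377 tested genes within 2-fold of its base mean.

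The 3 members called lower were Itgbl1, Itga3 and Itgb5. Itgbl1, on chromosome 14, had a log2 fold change of -0.68 (SE 0.10, 95% interval -0.86 to -0.49), with implied mean normalized counts of 1569 in control and 981 in MA-treated cells. Itga3, the α chain of a laminin receptor, had one of -0.43 (SE 0.11, interval -0.65 to -0.21), from 8362 to 6208. Itgb5, which pairs with αv, had one of -0.34 (SE 0.05, interval -0.45 to -0.24), from 5864 to 4623. At more than 1.5-fold Itgbl1 alone was still called lower, since the ratios of Itga3 and Itgb5 were 0.742 and 0.788.

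The β1 chain and 3 of its α partners did not pass the thresholds. The log2 fold changes were -0.03 for Itgb1 (SE 0.05, 95% interval -0.14 to 0.07), -0.02 for Itga6 (SE 0.08, interval -0.17 to 0.14) and -0.00098 for Itgav (SE 0.07, interval -0.13 to 0.13). For these genes the intervals hold only changes under the 1.2-fold threshold, which is 0.26 on the log2 scale. Itga5, the α chain of the fibronectin receptor, had a log2 fold change of 0.12 with a wider interval of -0.23 to 0.47 (SE 0.18). Itgb3, at a base mean of 0.710, had an SE of 3.97 and a 95% interval of -4.78 to 10.8, so its direction cannot be read.

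In the order of the fold changes, the intervals of Itga5, Itgav, Itga6 and Itgb1 overlap each other. The interval of Itga3 overlaps those of Itga5, Itgb5 and Itgbl1.

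**Figure D2:**
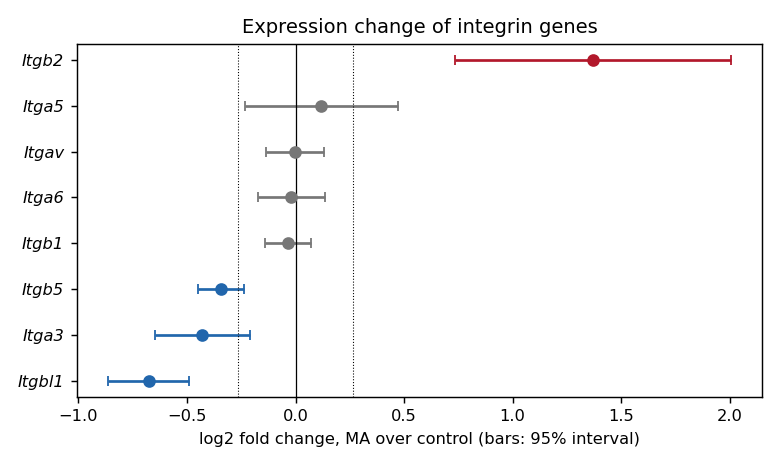
Log2 fold change of MA over control for the 8 members with a base mean of at least 50, with 95% intervals from the authors' standard errors. Red marks the gene called higher, blue the genes called lower, grey the others, and dotted lines the 1.2-fold threshold. Itgb2 lies at 1.37 and the other 7 genes between -0.68 and 0.12.

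The α chains that integrin β2 needs to reach the cell surface were looked up beside it. Itgal and Itgax were listed at 0. Itgam and Itgad had base means of 1.80 and 0.684, against 115 for Itgb2. The 4 genes sum to a base mean of 2.49, and none was called. The fold changes of Itgam and Itgad had SE of 3.93 and 3.97 and are not read.

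Leukocyte markers were examined because integrin β2 is best known from these cells. Of 19 markers of myeloid cells, 6 were listed at 0, among them Adgre1, Tyrobp, Fcer1g and Laptm5, and 8 lay above 0 and under a base mean of 10. Ptprc, which encodes the pan-leukocyte protein CD45, had a base mean of 1.34, and Spi1, which encodes the factor PU.1, one of 0.676. The markers with the highest base means were Cd68, a lysosomal membrane protein that is also made outside these cells, with 327, Lyz2 (lysozyme) with 112 and Fermt3 (kindlin-3, which activates β2 integrins in blood cells) with 78.5. Of the 13 markers with a p-value, 3 were called higher and none lower, beside 6.80% and 7.07% of all tested genes. The marker list was chosen with earlier results of these data known. Cd68 rose by a log2 fold change of 1.94 (SE 0.21, adjusted p = 9.0e-18, DESeq2). Cd14 and Trem2, with base means of 68.0 and 5.45, passed the call on an unadjusted p alone (adjusted p = 0.20 and 0.075, DESeq2). Lyz2 and Fermt3 had log2 fold changes of -0.19 (SE 0.35) and -0.03 (SE 0.32). The summed implied level of the list was 475 in control and 867 in MA-treated cells, and 340 and 348 without Cd68. Cd68 was left out after its value was seen, and the second sum hides differences of opposite sign in a few genes. In it Cd14 went from 46.1 to 90.0 and Trem2 from 0.17 to 10.7, whereas Aif1 went from 76.7 to 51.8 and Lyz2 from 120 to 105. Neither Aif1, with a log2 fold change of -0.57 (SE 0.42), nor Lyz2 was called, so their direction is not settled. The part of other cells in the change of Itgb2 was not tested.

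The other 18 subunit genes were low, and none of the 12 with a p-value was called. Itga2b, the platelet α chain, was the highest of them with a base mean of 323 and a log2 fold change of 0.19 (SE 0.16). Itgae, the αE chain, and Itgb7, its β partner, had log2 fold changes of 0.05 (SE 0.62) and -0.71 (SE 0.64). Itga1, a collagen receptor chain, had a log2 fold change of -1.28 (SE 0.73) at a base mean of 19.5, and Itga10 one of 0.56 (SE 0.52) at 36.2. Itga7 and Itgb4, both chains of laminin receptors, had -0.10 (SE 0.43) and -0.81 (SE 1.15). Itga2, Itga9 and Itga11 had base means of 0.676, 1.30 and 2.77, with SE of 3.97, 3.77 and 2.49. Itga8, Itgb2l, Itgb6 and Itgb8 were listed at 0.

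Inside the cell, talin and kindlin switch integrins on, and vinculin, parvins, tensins and other adaptors tie them to actin. Of 46 genes for such proteins, 44 had a p-value, 1 was called higher and 9 were called lower, and the 10 calls also held with an adjusted p under 0.05. These are 2.27% and 20.5% of the tested list, beside 6.80% and 7.07% over all tested genes. Such shares are a description only, since this list and those of ligands and partners were chosen with earlier results known. The median log2 fold change of the list was -0.09, beside -0.01 over all genes. Tln1 (talin) fell by 0.43 on the log2 scale (SE 0.05, adjusted p = 4.9e-13), Kank2 by 0.61 (SE 0.08, adjusted p = 5.8e-13) and Vcl (vinculin) by 0.42 (SE 0.06, adjusted p = 3.2e-11), all from DESeq2 as deposited. The other lower genes were Tns3, Dab2, Parva, Fermt2, Rap1a and Apbb1ip. The parvin genes went apart, with Parvb called higher at 0.43 (SE 0.08) and Parva lower at -0.34 (SE 0.06). Ilk, which encodes a pseudokinase that binds β chains and parvins, had -0.08 (SE 0.06), and the kinase genes Ptk2, Src and Fyn had -0.11 (SE 0.06), 0.11 (SE 0.13) and 0.04 (SE 0.08).

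Among the matrix proteins that integrins bind, 37 of 40 genes had a p-value, 20 were called lower and 1, Thbs2, was called higher with a log2 fold change of 0.33 (SE 0.06). These are 54.1% and 2.70% of the tested list, beside 7.07% lower and 6.80% higher over all tested genes. As for the adaptors, the list was chosen with earlier results known, so its shares are no independent evidence. A base mean of at least 50 was reached by 30 genes of this list, with 37 tested, and by 40 adaptor genes, with 44 tested. Over all genes 11010 reached it, with 16167 tested. Changes are easier to call at higher counts, so the shares of the lists and of all genes are not like for like. Of the 20 lower calls 19 held with an adjusted p under 0.05. The median was -0.36. Col3a1, Col1a1 and Col6a2 had the smallest p-values, with log2 fold changes of -1.42, -0.94 and -1.12 and SE of 0.04, 0.04 and 0.07. Fn1, the ligand of α5 with β1, had -0.36 (SE 0.05). Lamb1 and Lamc1, which encode a β and a γ chain of laminins, had -0.40 (SE 0.05) and -0.26 (SE 0.06), the second under the 1.2-fold threshold. Of the laminin α chain genes, Lama1, Lama2, Lama3 and Lama4 had base means of 1.03, 4.70, 1.31 and 0.658. Lama2 alone of them was called, lower at -5.63 (SE 1.85). Lamb2 and Lama5, which were not called, had 0.16 (SE 0.06) and -0.21 (SE 0.29). Vtn, the ligand of αv with β5, was listed at 0.

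Among 14 genes for ligands of β2 and α4 integrins, 11 had a p-value, none was called higher and 3 (27.3%) were called lower, beside 6.80% and 7.07% over all tested genes. C3, the source of the fragment that αM and αX with β2 bind, had a log2 fold change of -1.12 (SE 0.06), and Vcam1 had -0.63 (SE 0.07). Icam5, at a base mean of 160, had -0.54 (SE 0.27) (adjusted p = 0.19, DESeq2). Icam1 and Icam2, which also encode ligands of β2 integrins, had base means of 6.69 and 1.35. Of 12 membrane partners of integrins, Cd63 was called higher at 0.31 (SE 0.08), and Sdc4, Bsg and Cd82 were called lower at -0.60 (SE 0.07), -0.31 (SE 0.04) and -0.39 (SE 0.17, adjusted p = 0.10, DESeq2). These are 8.33% higher and 25% lower of the partners, beside 6.80% and 7.07%, and their median was -0.02. All 12 partners had a base mean of at least 50, so here too the shares are not like for like.

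**Figure D3:**
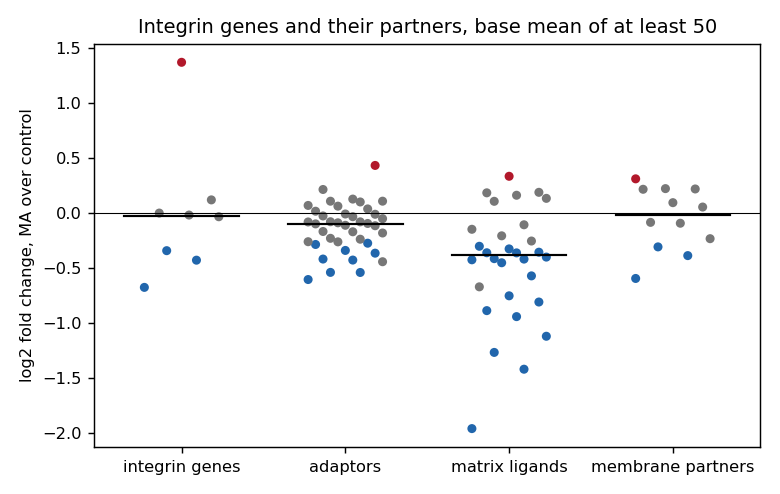
Log2 fold change of MA over control for the members and for 3 lists of their partners, for genes with a base mean of at least 50. Each point is a gene, red if called higher and blue if called lower, and black lines are medians. The line of the matrix ligands lies at -0.38, that of the adaptors at -0.10, and those of the members and the membrane partners at -0.03 and -0.02.

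N6-methyladenosine (m6A) is a mark on messenger RNA that is laid down by a methyltransferase complex and read by proteins that act on the stability and translation of the transcript. MeRIP-seq compares the reads of the antibody libraries with those of the input in each peak. Both peaks of Itgb2 lie in exon 14 of 16 of its longest coding transcript, in the coding sequence, with their midpoints 388 and 312 bases before its end. They are 50 bases long each and 25 bases apart, so fragments of RNA can count in both. The stretch that holds them is shown because it carries both increases called among the members. It is the plus strand of chr10:77561030-77561154 (GRCm38, RefSeq), with both peaks in capitals and the gap between them in lower case:
Itgb2 exon 14: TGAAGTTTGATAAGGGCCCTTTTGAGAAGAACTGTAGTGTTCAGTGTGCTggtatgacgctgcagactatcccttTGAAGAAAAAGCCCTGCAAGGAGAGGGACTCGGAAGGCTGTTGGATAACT

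The m6A consensus was searched on the transcribed strand as 12 words of 5 letters, namely GGACN with N being A, C or T, and likewise AGACN besides GAACN besides AAACN. Each peak of a member held 1 of them, and the gap in Itgb2 held another, AGACT. Of all peaks that no intron splits, 48.0% of the 895 with 50 bases and 63.5% of the 389 with 75 bases held at least 1 word, so the words do not set the members' peaks apart. The words are shown in capitals with 10 bases on either side:
Itgb2, first peak: cttttgagaaGAACTgtagtgttca
Itgb2, second peak: gcaaggagagGGACTcggaaggctg
Itgbl1: attctcacatAAACCaaccagtcag
Itga6: ccttggctcaAGACTgccaatggat

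The peaks of Itgbl1 and Itga6 lie in the last exon, within the 3′ untranslated region. That of Itgbl1, at 123973848 to 123973897 on chromosome 14, is centred 500 bases after the coding sequence. That of Itga6, at 71856385 to 71856459 on chromosome 2, is centred 594 or 410 bases after the coding sequence, by annotated transcript.

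**Figure D4:**
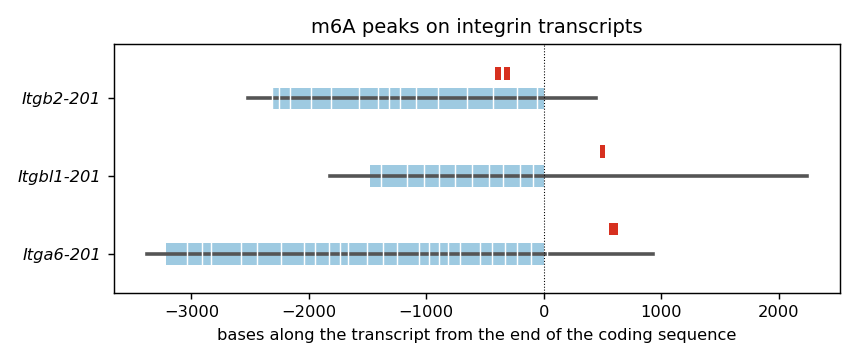
The m6A peaks (red) on the longest coding transcripts of Itgb2, Itgbl1 and Itga6, in bases from the end of the coding sequence (0, dotted line). Blue boxes are coding sequence, white lines exon borders and grey lines the whole transcript. Both Itgb2 peaks lie before the end of the coding sequence, and the peaks of Itgbl1 and Itga6 after it.

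In the first Itgb2 peak, control cells had 31 input and 21 IP reads and MA-treated cells 33 input and 95 IP reads, each pooled by the authors over 3 libraries. In the second peak, control cells had 69 input and 42 IP reads and MA-treated cells 56 input and 163 IP reads. Per library, the control input reads were 16.1% and 35.8% of the implied control count of the whole gene. The median of this share was 1.32% over 840 peaks of 50 bases on genes with a base mean of at least 50. Of those peaks, 96.0% and 98.8% had a lower share than the Itgb2 peaks. Why the input reads were so many for this expression level was not tested. In control cells the IP reads were thus fewer than the input reads in both peaks, and in MA-treated cells they were 258 against 89. The authors' log2 ratios of IP to input, scaled by size factors, were -0.19 and -0.34 in control and 1.39 and 1.40 in MA-treated cells.

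A peak was called by the same thresholds as a gene. Both Itgb2 peaks were called higher and the Itgbl1 peak was called lower, beside 25.2% of the 2642 peaks with a p-value called higher and 5.94% called lower. As deposited, the change of the ratio on the log2 scale was 1.04 in the first Itgb2 peak (adjusted p = 0.093, exomePeak2) and 1.48 in the second (adjusted p = 0.0076, exomePeak2). Only the second was therefore called with an adjusted p under 0.05. From the pooled reads and counting error alone, the changes were 1.55 (95% interval 0.56 to 2.53) and 1.72 (interval 1.01 to 2.42). The median deposited change over all peaks was 0.20, and 86.5% and 92.6% of the peaks had a smaller deposited change than those of Itgb2. From the pooled reads the median over all peaks was 0.37. Centred on it, the changes of both Itgb2 peaks were 1.18 and 1.35. Neither interval of the pooled reads covers the spread between libraries.

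The Itgbl1 peak went the other way, with 155 input and 229 IP reads in control and 109 and 109 in MA-treated cells. The IP reads exceeded the input in control cells and equalled it after MA. The log2 ratios were 0.96 and -0.15, and their deposited change was -0.96 (adjusted p = 0.018, exomePeak2). From the pooled reads it was -1.10 (95% interval -1.59 to -0.62). A lower value was found for 3.82% of the peaks. Itgbl1 was thus called lower both in expression and in this ratio, and Itgb2 higher in both, as far as the reversed sign of the expression table holds. The libraries behind the expression table are not named, and across peaks its changes correlated with the IP reads (rho 0.28) and not with the input reads (rho 0.0076). Both calls may rest on some of the same reads, so they are not taken as separate measures.

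The Itga6 peak held 32 input and 50 IP reads in control and 53 and 64 in MA-treated cells. Its change of -0.55 was not called (adjusted p = 0.29, exomePeak2). The change from the pooled reads was larger, -0.91 with a 95% interval of -1.74 to -0.08. The other 7 members have no peak in this table.

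**Figure D5:**
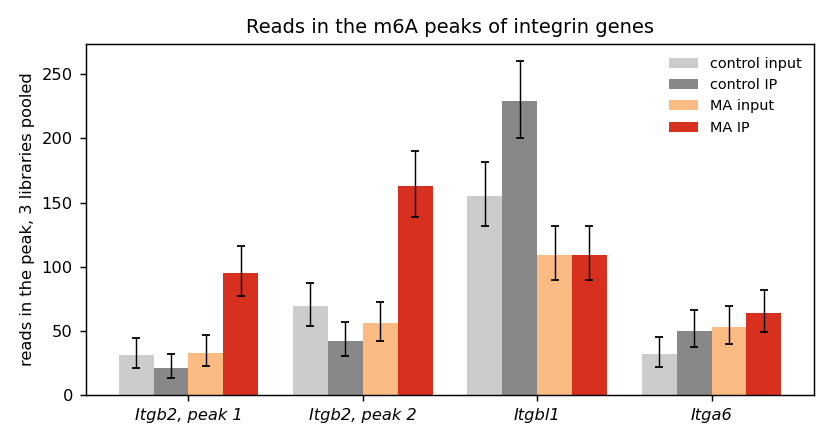
Reads in the 4 m6A peaks of the members, pooled over the 3 libraries of each group, with exact Poisson 95% intervals that cover counting error only. The MA IP bar of Itgb2 is the highest of its group in both peaks (95 and 163 reads), and in Itgbl1 the control IP bar is (229 reads).

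The input reads inside the peaks were set beside the expression change of the same gene. In both Itgb2 peaks together, the input held 100 reads in control and 89 in MA-treated cells, while all peaks of the table held 288659 and 214778. Relative to these totals the Itgb2 input changed by 0.52 on the log2 scale in the first peak (95% interval -0.19 to 1.22, counting error only) and by 0.13 in the second (interval -0.38 to 0.63). The interval of the first peak overlaps that of the gene's fold change in the expression table, 0.73 to 2.01, and that of the second lies below it. In both peaks together the input changed by 0.26 (interval -0.15 to 0.67), also below that of the fold change. Fragments in both peaks count in each here, so this interval is too narrow. The IP reads, 63 and 258 in both peaks together, changed by 1.60 relative to their totals, where a fragment in both peaks counts in each. For Itgbl1 the scaled input change was -0.08 (interval -0.43 to 0.27) beside an expression change of -0.68, and for Itga6 it was 1.15 (interval 0.52 to 1.79) beside -0.02. For Itgbl1 and Itga6, as for both Itgb2 peaks together, the interval of the input reads lies outside that of the expression change. Over the 2317 peaks on genes with a base mean of at least 50, the input changes did not follow the expression changes in rank (Spearman's rho 0.0076). The cause was not tested.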

How the data were processed

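MeRIP-seq of HT22 cells gave 3 input and 3 anti-m6A IP libraries per group. Per the study's methods, trimming was done with fastp, alignment to mm10 with HISAT2 and quantification with StringTie, and DESeq2 served for the expression comparison and exomePeak2 for the peaks. The authors deposited, for expression, a base mean (a normalized signal), a log2 fold change with its standard error, a Wald statistic (a score) and p-values. For peaks the authors deposited read counts pooled by group, log2 ratios of IP to input, their change and p-values. That change is not the plain difference of both ratios. The versions of these tools are not given in the sources used here.

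The authors' columns were used as deposited, with the sign of the expression fold change reversed after earlier results had been seen. The study's text itself reads most gene groups with the reversed sign and the m6A regulators with the deposited one. Values of single libraries (0 columns of them left out) were not analysed, so no count model was run. The dose and time come from the study's methods. Intervals are 95% and come from the standard errors or, for peaks, from counting error of the pooled reads, shifted to the scale of the authors' ratios. Lengths and positions come from GENCODE M21 and sequences from RefSeq GRCm38, the assembly of mm10, where 2526 of 2643 peaks overlap the gene they name. Of each member's longest coding transcript, cut into stretches of 50 bases, at most 9.23% (Itgb5) also occur in transcripts of other genes. For Itgb2 this share was 1.69%. Computations ran in scipy 1.17.1, pandas 2.3.3 and numpy 2.4.6 under Python 3.11.15, with plots from matplotlib 3.10.9.

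The members and lists were chosen with earlier results of these data known. Named genes are all members, all subunit genes, and from each list up to 3 higher and 3 lower called genes with the smallest p and, for markers, the 3 highest base means. Genes named beyond this rule (Tns3, Dab2, Parva, Fermt2, Rap1a, Apbb1ip, Ilk, Ptk2, Fn1, Src, Fyn, Lamb1, Lamb2, Lamc1, Lama1, Lama2, Lama3, Lama4, Lama5, Vtn, Icam1, Icam2, Aif1 and the markers at or near 0) were chosen after their values were seen. Alternatives were an adjusted p, other fold thresholds, a minimum of 50 for base mean or reads, centring on the median, and p-values from the pooled reads.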

Additional observations from a re-analysis of the deposited data

How the results depend on the processing

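The counts of called genes and peaks were recomputed under the alternatives, and 65 of 82 stayed within 1.5 times. With an adjusted p, the higher calls fell to 1 among the myeloid markers and to 1 among the members' peaks. Without a fold threshold, 3 adaptors, 5 matrix ligands and 3 membrane partners were higher and 14 adaptors were lower. At more than 1.5-fold, no adaptor, matrix ligand or membrane partner was higher (0 each), and the lower calls were 1 member (Itgbl1), 0 subunit genes, 1 adaptor, 9 matrix ligands and 1 membrane partner. With p-values from the pooled reads, with or without centring on the median change of all peaks (0.37), 2 members' peaks were lower, the second being that of Itga6. With at least 50 reads in each group, 0 members' peaks were higher, because both Itgb2 peaks had 42 or fewer control IP reads. Centring on the median of all tested genes shifted fold changes by 0.01 and turned the sign of Itgav, which was not called, from -0.00098 to 0.01. No other single value of a member or peak changed direction under these alternatives. No paired analysis was possible because the tables hold no values of single libraries, and for the same reason no library could be left out. The pooled counts and the unknown library depths limit all peak values to counting error.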

Other observations

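Among the other genes of the lists, 20 carried 24 peaks in the m6A table, of which 6 were called higher and 1 lower, beside 25.2% and 5.94% of all peaks. An adjusted p under 0.05 was reached by 5 of the higher peaks and not by the lower one. Those 5 lay on Col4a2, Cd14, Dock1, Col4a1 and Nid1. The largest of these changes was that of Col4a2, a chain of basement membrane collagen, with 237 input and 133 IP reads in control and 120 and 331 in MA-treated cells (log2 change 1.67, adjusted p = 2.4e-06, exomePeak2). Dock1, an activator of Rac downstream of integrins, had a change of 1.15 on the log2 scale. The lower peak was that of Kank1, a talin-binding adaptor, whose log2 ratio differed by -0.88 (adjusted p = 0.14, exomePeak2). The peaks named here were chosen after their values were seen.

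Lpxn, which encodes the adaptor leupaxin, was listed at 0 in the expression table while its peak held 27 control input reads.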
